A study of Mus musculus with 9 samples.

Results

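The alveolar barrier was followed through 10 genes of cell-cell junctions in 9 mouse lungs. The genes were chosen by the role of their proteins, at a time when earlier results of these data were known. They were the claudin genes Cldn3, Cldn4, Cldn18 and Cldn5, the occludin gene Ocln, the scaffold gene Tjp1, the immunoglobulin-type adhesion genes F11r and Esam, and the cadherin genes Cdh1 and Cdh5. They are 10 of 27203 gene IDs in the table, and all 10 passed the filter for low values (a mean of at least 0.1 FPKM, fragments scaled to transcript length and library size, which left 19378 genes to test). Each library was made from the lung RNA of 1 male C57BL/6 mouse aged 6 to 8 weeks, with 3 mice per group. All mice were anesthetized with ketamine and xylazine and intubated. Control mice breathed without a ventilator, and VILI (ventilator-induced lung injury) mice were paralyzed with pancuronium and ventilated for 4 hours with room air at zero end-expiratory pressure and 20 ml/kg per breath. VILI 0 hours mice were killed at the end of ventilation and VILI 6 hours mice 6 hours later. Mice of the study were killed at several times after ventilation or the control procedure, and which of these times applies to the sequenced controls is not given in the sources used here, so ventilation, paralysis and time since anesthesia cannot be told apart.

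The wall between blood and air has an endothelial and an epithelial layer, and the cells of each layer are sealed to their neighbours by tight junctions and held together by adherens junctions. Claudins and occludin span the membrane of tight junctions and set which ions and how much water pass between cells, ZO-1 (the product of Tjp1) ties them to actin, and cadherins carry the pull between cells at adherens junctions. Cldn3, Cldn4, Cldn18 and Cdh1 are known from lung epithelium, Cldn5, Esam and Cdh5 from endothelium, and Ocln, Tjp1 and F11r from both. Junctions can open by phosphorylation, internalization or cleavage of these proteins, which mRNA levels do not measure.

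Whole lung was analyzed, so fewer cells of a type and less RNA per cell cannot be told apart. Defining markers of endothelium (13 genes), alveolar type 1 cells (12), alveolar type 2 cells (12) and epithelium in general (6, Cdh1 left out) were above 0 in every group. Neutrophil markers (10 genes) summed to 50.2 to 57.4 FPKM in control, 566.3 to 1029 FPKM at VILI 0 hours and 468.1 to 2075 FPKM at VILI 6 hours. All 10 had a fold change above 0 in both comparisons with control, and 6 of them at VILI 0 hours and 8 at VILI 6 hours rose (limma adjusted p under 0.05). VILI 6 hours replicate 1 stood apart from the other libraries. Its Spearman rho with the other libraries of its group was 0.963 and 0.944 over genes, against 0.973 between those libraries and 0.987 to 0.988 among controls. Its erythroid markers (6 genes) summed to 488.8 FPKM, against 3226 to 5420 FPKM in the other 8 libraries, and its neutrophil sum was the lowest of its group. The fold changes of the 10 genes at VILI 6 hours against control, and the counts over lists of other junction genes, are therefore also given without it. All 10 neutrophil markers rose at VILI 6 hours in that reduced fit.

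In no comparison did a junction gene pass an adjusted p of 0.05 in limma over all genes, whereas 55 genes (0.284% of those tested) did so at VILI 0 hours and 136 (0.702%) at VILI 6 hours against control, and 0 (0%) between the VILI groups, where 1938 genes had an unadjusted P under 0.05. The pattern was nevertheless uneven. Cldn3, Cldn4, Cldn5, Esam and Cdh1 had all 3 VILI 6 hours libraries above all controls, Cldn18, Ocln and F11r had lower means than control in both VILI groups, and the Tjp1 groups overlapped. Without VILI 6 hours replicate 1, which leaves 2 libraries in that group, 4 of the 10 genes passed the adjusted threshold at VILI 6 hours, against 23.3% of all genes: Cldn4, Esam and Cdh5 rose and Cldn18 fell.

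**Figure D1:**
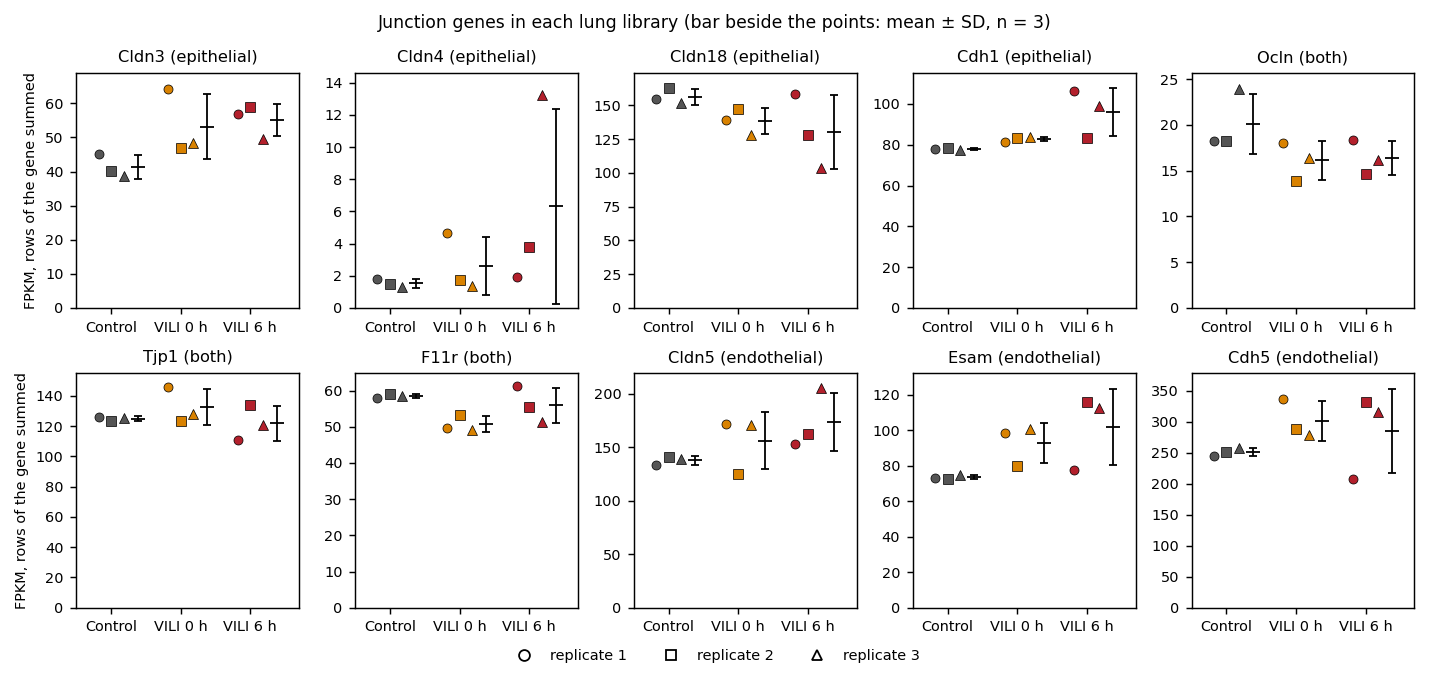
FPKM of each junction gene (y axis, from 0) in every library, by group (x axis), with circles, squares and triangles for replicates 1 to 3 and a bar for the mean ± SD (n = 3). The 3 VILI 6 hours libraries lie above every control for Cldn3, Cldn4, Cldn5, Esam and Cdh1, and Cldn4 spreads from 1.91 to 13.2 FPKM.

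The levels differed widely between genes. On the per-length FPKM scale, the control order was Cdh5 (251.5 ± 6.62 FPKM, SD, n = 3), Cldn18 (156.1 ± 5.70), Cldn5 (137.6 ± 4.04), Tjp1 (125.1 ± 1.61), Cdh1 (78 ± 0.537), Esam (73.5 ± 1.13), F11r (58.5 ± 0.608), Cldn3 (41.3 ± 3.39), Ocln (20.2 ± 3.27) and Cldn4 (1.52 ± 0.268). No neighbours in that order overlapped. The order was less sharp after ventilation. In the VILI 6 hours group, Cldn5 overlapped with Cldn18, Cldn18 with Tjp1, Tjp1 with Esam, Esam with Cdh1, and F11r with Cldn3. Cdh5 kept the highest and Cldn4 the lowest mean in all 3 groups.

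The claudins are shown with the 250 bases before their transcription start because this family holds genes with positive (Cldn3, Cldn4 and Cldn5) and negative (Cldn18) fold changes in both comparisons with control, none of which passed the adjusted threshold with all libraries. Cldn4 and Cldn3 are neighbours on chromosome 5, 39.279 kb apart, and are read in opposite directions. The windows come from RefSeq (GRCm38.p6) and lie at chr5:134985964-134986213 on the plus strand for Cldn3, chr5:134946935-134947184 on the minus strand for Cldn4, chr9:99717268-99717517 on the minus strand for Cldn18 (the upstream one of its 2 starts) and chr16:18776597-18776846 on the plus strand for Cldn5. They are written 5′ to 3′ with the start just after the last base. Capitals mark matches, on either strand, to the E-box spelled CAGGTG, the Sp-type element GGGCGG called the GC box, the core promoter element TATAAA called the TATA box, the ETS-family motif CCGGAA, or the Jun and Fos family motif TGANTCA called the AP-1 site.
Cldn3: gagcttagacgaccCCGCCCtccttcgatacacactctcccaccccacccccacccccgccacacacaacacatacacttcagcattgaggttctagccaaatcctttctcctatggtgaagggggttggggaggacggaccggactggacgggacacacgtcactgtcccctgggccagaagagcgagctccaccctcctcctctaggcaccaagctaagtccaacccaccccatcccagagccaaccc
Cldn4: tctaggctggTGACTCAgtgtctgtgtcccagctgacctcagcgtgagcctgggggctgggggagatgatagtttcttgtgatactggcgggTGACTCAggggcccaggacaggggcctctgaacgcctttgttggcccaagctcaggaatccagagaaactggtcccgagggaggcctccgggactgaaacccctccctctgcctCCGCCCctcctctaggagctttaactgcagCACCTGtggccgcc
Cldn18: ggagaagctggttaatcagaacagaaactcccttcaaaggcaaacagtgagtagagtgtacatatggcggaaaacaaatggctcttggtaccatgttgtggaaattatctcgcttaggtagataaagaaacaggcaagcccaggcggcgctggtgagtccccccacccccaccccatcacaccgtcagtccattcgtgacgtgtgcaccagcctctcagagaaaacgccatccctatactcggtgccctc
Cldn5: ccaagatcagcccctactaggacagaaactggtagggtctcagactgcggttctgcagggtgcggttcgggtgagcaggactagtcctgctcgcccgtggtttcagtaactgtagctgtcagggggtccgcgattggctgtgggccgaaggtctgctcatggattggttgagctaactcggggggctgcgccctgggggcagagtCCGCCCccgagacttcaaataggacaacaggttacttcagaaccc

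The Cldn4 window held 2 AP-1 matches, 240 and 158 bases before the start, with a GC box 44 and an E-box 14 bases before it. At least 1 AP-1 match was present in 6.75% of all 32851 windows of this length, an E-box in 17.2%, a GC box in 32.7%, a TATA box in 12.4% and an ETS motif in 12.0%. Cldn3 and Cldn5 had 1 GC box each, 236 and 45 bases before the start, and Cldn18 had none of the 5 motifs in this window. No matches overlapped in these windows. GC content was 60.8%, 62% and 59.6% in Cldn3, Cldn4 and Cldn5, and 52% in Cldn18, beside a median of 52.4% over all windows. Promoter entries were found for 7 of the 10 genes.

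Cldn3 (GRCm38 chr5:134986214-134987472), a sealing claudin of alveolar type 2 and airway cells, measured 45.2, 40.0 and 38.8 FPKM in control, 64.2, 46.9 and 48.4 FPKM at VILI 0 hours and 56.8, 58.8 and 49.7 FPKM at VILI 6 hours. Every VILI library exceeded every control, and replicate 1 was the highest of the VILI 0 hours group. The log2 fold change was 0.35 (SE 0.14, limma adjusted p = 0.248) at VILI 0 hours and 0.41 (SE 0.14, adjusted p = 0.15) at VILI 6 hours. The former was 0.21 without VILI 0 hours replicate 1. The difference between the VILI groups was 0.062 (95% interval −0.24 to 0.37). Without VILI 6 hours replicate 1 the change at 6 hours was 0.39 (adjusted p = 0.0895).

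Cldn4 (chr5:134945119-134946934), the claudin known for restricting sodium passage between epithelial cells, was the least abundant of the genes. Its values were 1.81, 1.49 and 1.28 FPKM in control, 4.68, 1.75 and 1.36 FPKM at VILI 0 hours and 1.91, 3.78 and 13.2 FPKM at VILI 6 hours. At VILI 0 hours only replicate 1 stood above the controls. In the VILI 6 hours group all 3 libraries did, replicate 1 by the least and replicate 3 by far the most. The log2 fold change at VILI 6 hours was 1.55 (95% interval 0.10 to 3.00, limma adjusted p = 0.222), the largest of the 10 genes and also the least precise. Single libraries set its size: it was 0.80 without replicate 3 and 2.16 (adjusted p = 0.0295) without replicate 1. At VILI 0 hours the change was 0.54 (adjusted p = 0.72), and 0.027 without replicate 1 and 0.88 without replicate 3. In the same libraries, the neutrophil markers summed to 468.1, 1021 and 2075 FPKM in VILI 6 hours replicates 1, 2 and 3, the same order as Cldn4, whereas at VILI 0 hours replicate 1, the highest for Cldn4, had the lowest neutrophil sum (566.3 FPKM). Their part in the result was not tested.

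Cldn18 (chr9:99689461-99717267), the main claudin of alveolar epithelium, measured 154.4, 162.5 and 151.4 FPKM in control, 139.4, 147.3 and 127.9 FPKM at VILI 0 hours and 158.7, 128.3 and 103.8 FPKM at VILI 6 hours. All VILI 0 hours libraries and VILI 6 hours replicates 2 and 3 were below every control, while VILI 6 hours replicate 1 was within the control range. Its log2 fold change was −0.18 (SE 0.14, limma adjusted p = 0.577) at VILI 0 hours and −0.28 (SE 0.14, adjusted p = 0.29) at VILI 6 hours. Cldn18 fell by 0.44 on the log2 scale (adjusted p = 0.0237) when VILI 6 hours replicate 1 was left out, and its change was −0.13 (adjusted p = 0.637) without replicate 3. With libraries centred on their median, the changes were −0.063 and −0.16 (adjusted p = 0.814 and 0.442). Alveolar type 1 markers summed to 2009 to 2126 FPKM in control, to 2003, 2426 and 2304 FPKM in VILI 0 hours replicates 1, 2 and 3, and to 2360, 2289 and 1816 FPKM in VILI 6 hours replicates 1, 2 and 3. The library with the lowest Cldn18 also had the lowest sum, whereas the next lowest, VILI 0 hours replicate 3 and VILI 6 hours replicate 2, had sums above every control. Their part in the result was not tested.

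Within a library, Cldn3 was set beside Cldn18, as their fold changes had opposite signs. The Cldn3 to Cldn18 ratio of FPKM was 0.293, 0.246 and 0.256 in control, 0.461, 0.319 and 0.378 at VILI 0 hours, and 0.358, 0.459 and 0.479 at VILI 6 hours. The 6 VILI libraries all had a higher ratio than the 3 controls, including the library that stood apart. In that library Cldn18 was within the control range. As every VILI library exceeded every control for Cldn3, this ratio largely restates the values above. The Cldn5 to Cldn18 ratio exceeded every control (0.862 to 0.916) in the VILI 6 hours libraries, but was 0.849 in VILI 0 hours replicate 2. The Cdh5 to Cdh1 and Cldn3 to Cldn4 ratios overlapped with control in both VILI groups. No ratio was tested.

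**Figure D2:**
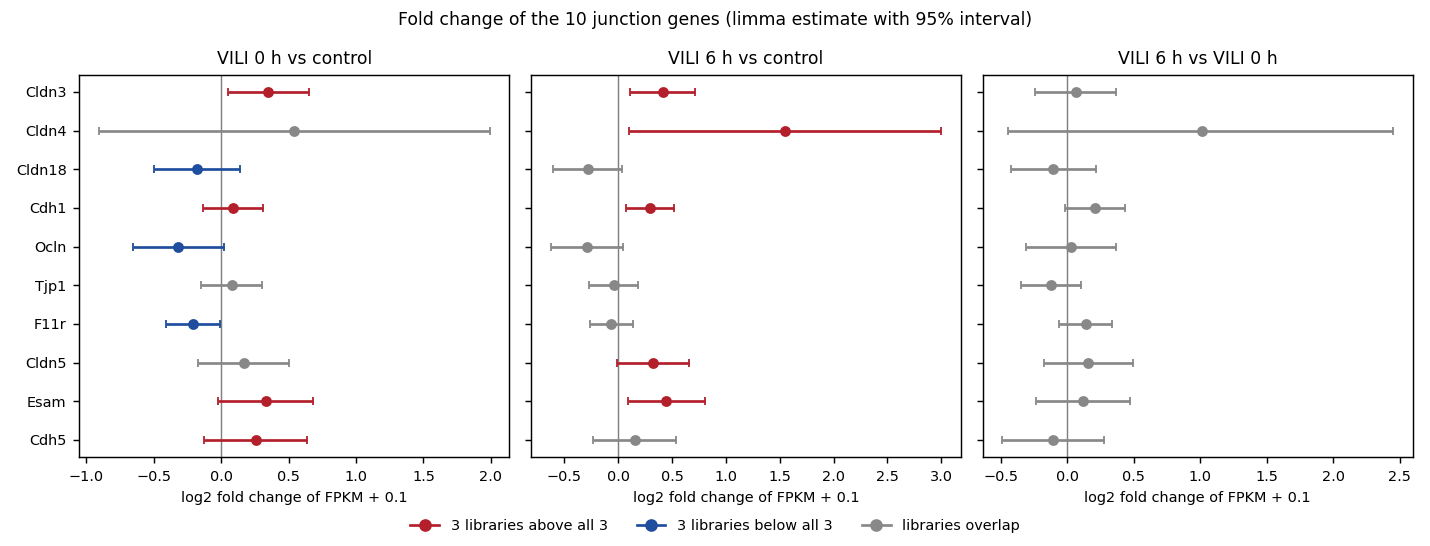
Log2 fold change of FPKM + 0.1 (x axis) of the 10 junction genes in the 3 comparisons, as limma estimates with 95% intervals over 3 against 3 libraries, colored by whether the libraries of the groups overlap. Cldn4 has by far the widest intervals, 0.10 to 3.00 at VILI 6 hours against control, and in the last panel the groups overlap for all 10 genes.

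Cldn5 (chr16:18776847-18778262), the claudin of endothelium, measured 133.1, 140.9 and 138.7 FPKM in control, 171.9, 125.1 and 171.1 FPKM at VILI 0 hours and 153.2, 162.8 and 204.9 FPKM at VILI 6 hours. VILI 0 hours replicate 2 was below all controls and the other two were above them, whereas all VILI 6 hours libraries were above. Cldn5 had a log2 fold change of 0.17 (limma adjusted p = 0.621) at VILI 0 hours and 0.32 (95% interval −0.01 to 0.66, adjusted p = 0.256) at VILI 6 hours, and 0.41 (adjusted p = 0.0849) without VILI 6 hours replicate 1. Single libraries moved these values, to 0.20 at VILI 6 hours without replicate 3, and to 0.089, 0.32 and 0.092 at VILI 0 hours without replicates 1, 2 and 3. Median-centred libraries gave 0.28 and 0.45.

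Esam (chr9:37528078-37538319), an adhesion molecule of endothelial tight junctions and platelets, measured 73.3, 72.5 and 74.8 FPKM in control, 98.4, 80.0 and 100.5 FPKM at VILI 0 hours and 77.4, 116 and 112.7 FPKM at VILI 6 hours. Every VILI library was above every control, with VILI 6 hours replicate 1 and VILI 0 hours replicate 2 the nearest to them. For Esam the log2 fold change was 0.33 (SE 0.16, limma adjusted p = 0.341) at VILI 0 hours and 0.45 (SE 0.16, adjusted p = 0.171) at VILI 6 hours. With VILI 6 hours replicate 1 left out, Esam rose by 0.64 (SE 0.11, adjusted p = 0.00573). Platelet markers (7 genes) summed to 36.2 to 45.0 FPKM in control and to 35.6, 63.2 and 72.8 FPKM in VILI 6 hours replicates 1, 2 and 3, again lowest in replicate 1. At VILI 0 hours they summed to 54.8, 39.9 and 47.5 FPKM, lowest in the replicate in which Esam was lowest. Their part in the Esam values was not tested.

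Cdh5 (chr8:104101625-104144511), VE-cadherin, the adhesion receptor of endothelial adherens junctions, measured 245.3, 250.7 and 258.4 FPKM in control, 337.6, 288.9 and 278.3 FPKM at VILI 0 hours and 207.1, 332.3 and 316.7 FPKM at VILI 6 hours. All VILI 0 hours libraries exceeded the controls. At VILI 6 hours replicate 1 was below every control and replicates 2 and 3 above. For Cdh5 the log2 fold change was 0.26 (SE 0.17, limma adjusted p = 0.497) at VILI 0 hours and 0.15 (SE 0.17, adjusted p = 0.625) at VILI 6 hours. When VILI 6 hours replicate 1 was left out, Cdh5 rose by 0.37 (SE 0.10, adjusted p = 0.0309), and the difference between the VILI groups turned from −0.11 to 0.11. Its change at VILI 6 hours was 0.027 without replicate 2 and 0.061 without replicate 3. Median-centred libraries gave 0.37 and 0.28 against control (adjusted p = 0.454 and 0.511).

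The 3 endothelial junction genes were set beside the other endothelial markers of the same libraries, to see whether they moved with the layer as a whole. The 13 markers summed to 1435 to 1487 FPKM in control, 1357 to 1574 FPKM at VILI 0 hours and 1300 to 1449 FPKM at VILI 6 hours, and their median log2 fold change was −0.10 and −0.13. At VILI 6 hours, Cldn5 and Esam had a higher fold change than all 13 markers and Cdh5 than 10 of them. At VILI 0 hours each of the 3 exceeded 10 of the 13. With VILI 6 hours replicate 1 left out, Cldn5 and Esam again exceeded all 13 and Cdh5 exceeded 12, with a marker median of −0.12. Among the 13 markers, 3 were higher and 3 lower at an unadjusted P under 0.05 at VILI 0 hours (beside 6.81% and 9.35% of all genes), and 0 and 5 at VILI 6 hours (beside 8.17% and 12.2%). In the fit without that library, 4 were higher and 6 lower at VILI 6 hours, beside 12.9% and 26% of all genes.

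Cdh1 (chr8:106603351-106670246), E-cadherin, the adhesion receptor of epithelial adherens junctions, measured 77.98, 78.5 and 77.5 FPKM in control, 81.4, 83.3 and 83.7 FPKM at VILI 0 hours and 106.3, 83.2 and 99.1 FPKM at VILI 6 hours. All VILI libraries were above all controls, narrowly at VILI 0 hours. Here VILI 6 hours replicate 1 was the highest library and replicate 2 the nearest to control. On the log2 scale Cdh1 differed from control by 0.086 (SE 0.10, limma adjusted p = 0.709) at VILI 0 hours and 0.29 (95% interval 0.07 to 0.52, adjusted p = 0.159) at VILI 6 hours, and 0.22 (adjusted p = 0.106) without VILI 6 hours replicate 1. The value at VILI 0 hours was 0.20 with median-centred libraries (adjusted p = 0.383). Between the VILI groups it had the lowest adjusted p of the 10 genes (0.522, log2 difference 0.21). The 6 other pan-epithelial markers summed to 272 to 273.7 FPKM in control, 282.1 to 337.2 FPKM at VILI 0 hours and 308.7 to 347.1 FPKM at VILI 6 hours, with a median log2 fold change of 0.34 at VILI 6 hours, so Cdh1 exceeded 2 of these 6 genes. Cldn3 exceeded 4 of the 6, Cldn4 all 6, and Cldn18 only 1. Against the alveolar type 2 markers at VILI 6 hours, Cdh1 and Cldn3 exceeded 11 of 12 each, Cldn4 12 of 12 and Cldn18 3 of 12. Against the alveolar type 1 markers, Cdh1 and Cldn3 exceeded 10 of 12 each, Cldn4 12 and Cldn18 3. Leaving out VILI 6 hours replicate 1, the alveolar type 2 counts were 11 for Cdh1 and Cldn3, 12 for Cldn4 and 2 for Cldn18. The alveolar type 1 counts were then 9 for Cdh1, 10 for Cldn3, 12 for Cldn4 and 4 for Cldn18. In that fit, Cdh1 and Cldn3 exceeded 3 each of the 6 pan-epithelial markers, Cldn4 all 6 and Cldn18 1.

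**Figure D3:**
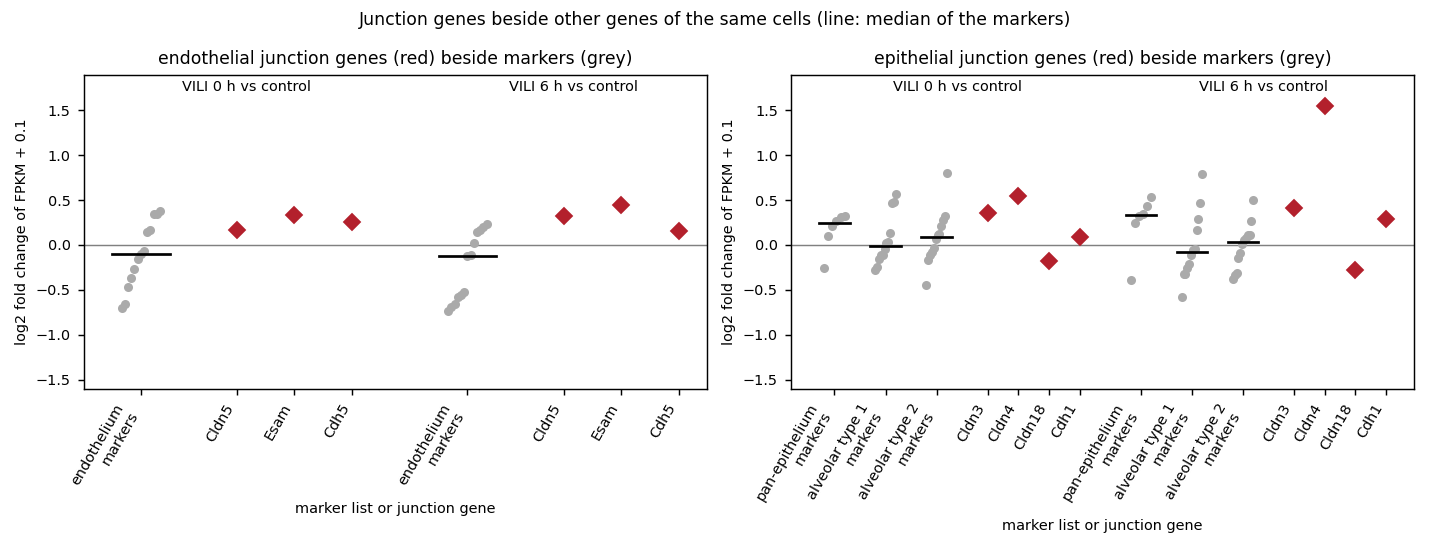
Log2 fold change against control (y axis) of endothelial (left) and epithelial (right) junction genes (red diamonds) beside the other markers of the same cells (grey points, line at their median), at VILI 0 hours and VILI 6 hours. Cldn5 and Esam lie above all 13 endothelial markers at VILI 6 hours, and Cldn18 lies below the median of every epithelial list.

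Of the genes shared by both layers, Ocln (chr13:100496507-100552718), a membrane protein of tight junctions, measured 18.2, 18.3 and 23.9 FPKM in control, 18.1, 13.8 and 16.4 FPKM at VILI 0 hours and 18.4, 14.6 and 16.2 FPKM at VILI 6 hours. All VILI 0 hours libraries were below all controls, replicate 1 narrowly, and VILI 6 hours replicate 1 overlapped with the controls. The log2 fold change was −0.32 (95% interval −0.66 to 0.02, limma adjusted p = 0.34) at VILI 0 hours and −0.29 (95% interval −0.63 to 0.05, adjusted p = 0.299) at VILI 6 hours. Control replicate 3, the highest library, carried part of this: without it the changes were −0.19 and −0.16. Median-centred libraries gave −0.20 and −0.16. Without VILI 6 hours replicate 1 the change at 6 hours was −0.37 (adjusted p = 0.112).

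Tjp1 (chr7:65296165-65527781), which encodes ZO-1, measured 126.3, 123.3 and 125.7 FPKM in control, 146, 123.5 and 128 FPKM at VILI 0 hours and 110.9, 134.1 and 120.5 FPKM at VILI 6 hours. The groups overlapped in every comparison. On the log2 scale Tjp1 differed from control by 0.079 (95% interval −0.15 to 0.31) at VILI 0 hours and −0.042 (95% interval −0.27 to 0.18) at VILI 6 hours, with limma adjusted p values of 0.739 and 0.83. The former was 0.19 with median-centred libraries (adjusted p = 0.538), and 0.0076 and 0.13 without VILI 0 hours replicate 1 and replicate 2. The sign of the latter turned when libraries were centred on their median (0.085) and without VILI 6 hours replicate 1 (0.023), and it was −0.11 without VILI 6 hours replicate 2.

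F11r (chr1:171437535-171464603), which encodes the junctional adhesion molecule JAM-A, measured 57.8, 59.0 and 58.5 FPKM in control, 49.8, 53.2 and 49.2 FPKM at VILI 0 hours and 61.1, 55.3 and 51.4 FPKM at VILI 6 hours. All VILI 0 hours libraries were below the narrow control range, and the VILI 6 hours libraries lay on both sides of it. The log2 fold change was −0.21 (95% interval −0.41 to −0.01, limma adjusted p = 0.294) at VILI 0 hours and −0.066 (95% interval −0.27 to 0.13, adjusted p = 0.686) at VILI 6 hours. With median-centred libraries the value at VILI 0 hours was −0.091 (adjusted p = 0.604) and no longer under an unadjusted P of 0.05. The value at 6 hours was 0.061 with median-centred libraries, −0.13 (adjusted p = 0.253) without VILI 6 hours replicate 1 and −0.0072 without replicate 3.

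**Figure D4:**
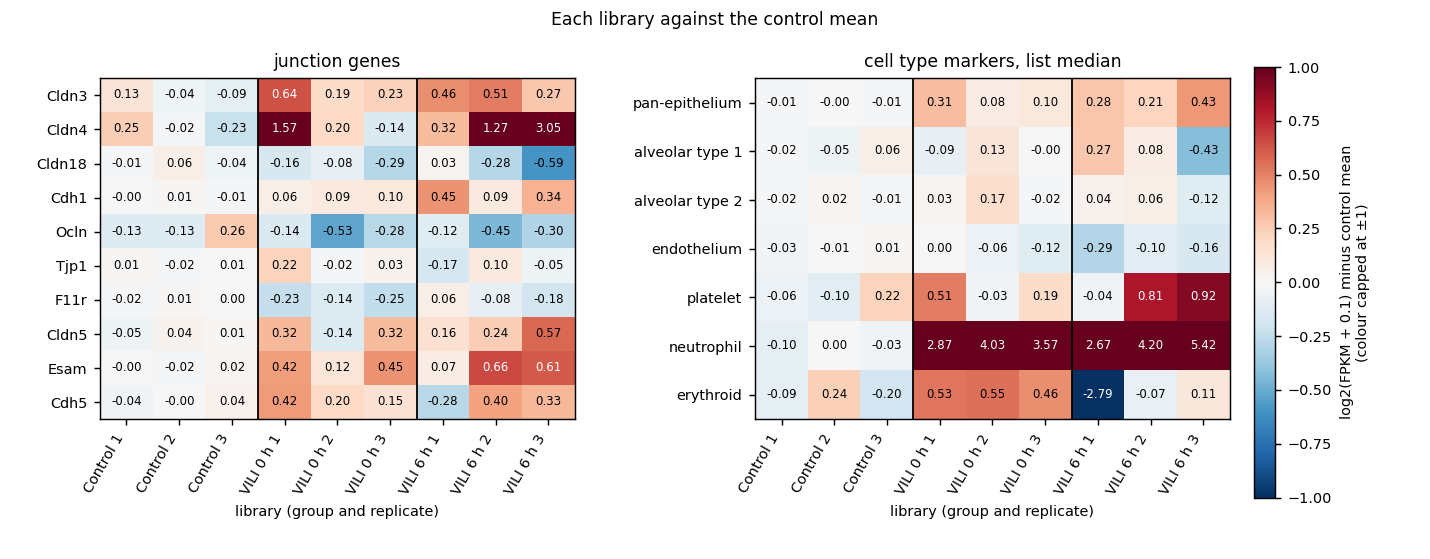
Difference of each library (columns) from the control mean, in log2(FPKM + 0.1), for the 10 junction genes (left) and for the median of each marker list (right), with the color capped at 1 in either direction. VILI 6 hours replicate 1 shows Cdh5 below and Cdh1 above control, and erythroid markers at −2.79.

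Counted over the 10 genes, 7 had groups that did not overlap at VILI 0 hours against control, beside 33.5% of all genes tested. Of these, Cldn3, Esam, Cdh1 and Cdh5 were higher (4 of 10, beside 12% of all genes) and Cldn18, Ocln and F11r were lower (3 of 10, beside 21.6%). At VILI 6 hours, 5 of 10 did not overlap, beside 24.6%, and all 5 were higher, beside 9.64%. With VILI 6 hours replicate 1 left out, 9 of 10 did not overlap in this comparison of 2 against 3 libraries, beside 56.8% of all genes, with 6 higher (beside 19.7%) and Cldn18, Ocln and F11r lower (beside 37.1%). Between VILI 6 hours and VILI 0 hours, 0 of 10 were separated, beside 12.5%. An exact two-sided permutation test of 3 against 3 libraries cannot go below 0.1, and each gene separated in such a comparison gave that value.

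The study used an unadjusted threshold. In limma, P values below 0.05 without adjustment were found for 2 of 10 genes at VILI 0 hours (Cldn3 and F11r), beside 16.2% of all genes, for 4 of 10 at VILI 6 hours (Cldn3, Cldn4, Esam and Cdh1), beside 20.4%, and for 0 of 10 between the VILI groups, beside 10%. All 4 at VILI 6 hours were higher, beside 8.17% of all genes. Leaving out 1 library at a time ended the unadjusted call in at least 1 case for Cldn3 and F11r at VILI 0 hours and for Cldn4 and Esam at VILI 6 hours. With VILI 6 hours replicate 1 left out these counts were 5, 8 and 3 of 10, beside 23.2%, 38.9% and 22.4%. Among all genes, those with an unadjusted P under 0.05 were higher in 42.1% at VILI 0 hours and 40.1% at VILI 6 hours, and with median-centred libraries in 61.2% and 58.1%, because centring shifted fold changes by 0.11 and 0.13. The median log2 fold change of the 10 genes was 0.13 at VILI 0 hours and 0.22 at VILI 6 hours, beside −0.07 and −0.09 over all genes. It was 0.29 at VILI 6 hours without replicate 1, beside −0.14 over all genes. Both comparisons use the same 3 control mice.

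The deposited rows of a gene carry no transcript ID, and splits between them are estimates. Cldn3, Cldn4, Cldn5 and F11r had 1 row each, and 1 of the 2 Cdh1 rows was at 0 in all libraries. One row held 98.1% of Cdh5, 90.3% of Esam, 82.2% of Cldn18 and 79.5% of Tjp1. The main Cldn18 row measured 127.1, 127.8 and 131.9 FPKM in control and 124.5, 104.7 and 84.3 FPKM at VILI 6 hours, where its libraries stood in the same order as for the whole gene. Ocln was the most divided. Its row 5 was 10.2, 10.4 and 8.68 FPKM in control, 7.97, 7.997 and 6.998 FPKM at VILI 0 hours and 8.30, 7.23 and 6.73 FPKM at VILI 6 hours, so all 6 VILI libraries were below the 3 controls in it. Row 2, which held 31.1% of the gene, did not follow, with 6.06, 4.92 and 5.02 FPKM in control, 8.74, 4.97 and 3.72 FPKM at VILI 0 hours and 4.89, 4.96 and 5.86 FPKM at VILI 6 hours. Row 4 ranged from 0.0101 to 6.04 FPKM and row 3 was listed at 0 in 5 of the 9 libraries.

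**Figure D5:**
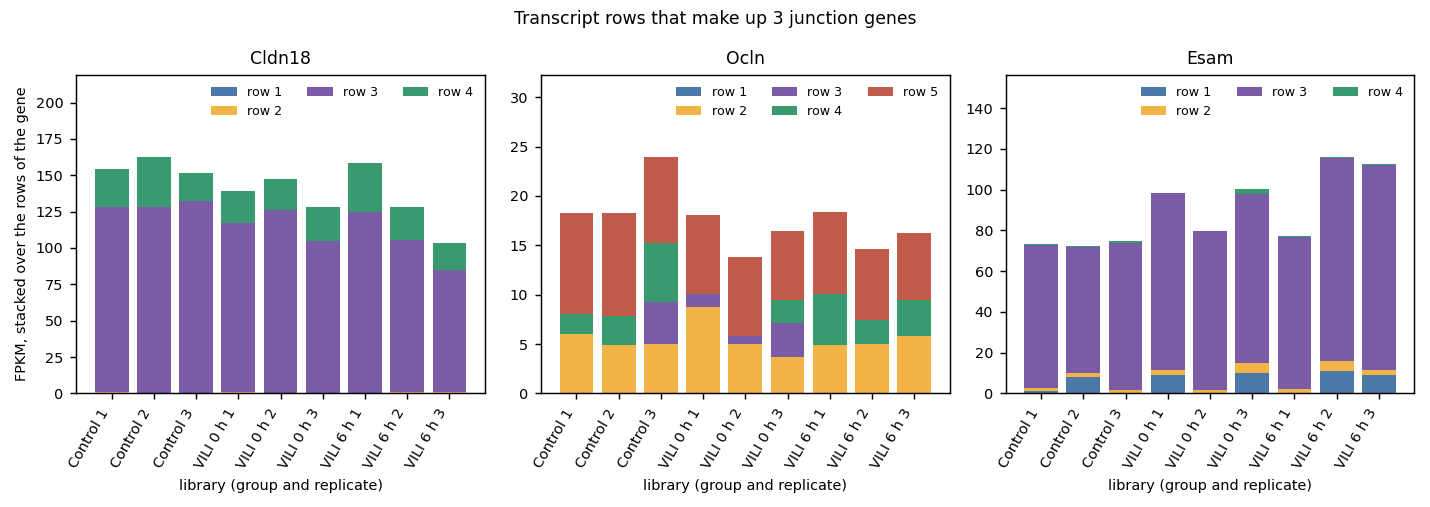
FPKM of the deposited rows of Cldn18, Ocln and Esam, stacked to the level of the gene (y axis, from 0) in each library (x axis). One row carries most of Cldn18 and Esam, whereas Ocln is divided among rows whose shares differ between libraries of a group.

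Similarity of pattern was described by the Pearson r of log2(FPKM + 0.1) over the 9 libraries, which share their 3 groups. The r of Esam was 0.822 with Cldn5, 0.786 with Cdh5 and −0.882 with Cldn18, and without VILI 6 hours replicate 1 it was 0.846, 0.86 and −0.874, so which of Cldn5 and Cdh5 was nearest turned on that library. The r of Tjp1 was 0.757 with Cdh5 and −0.616 with Cdh1, and without VILI 6 hours replicate 1 it was 0.572 and −0.265. Without that library Tjp1 was nearest to Cldn3 (0.782, from 0.365) and least like F11r (−0.38, from −0.577), so these too turned on it. Among 14107 genes with a mean of at least 1 FPKM, the pattern of Esam was nearest to Pkp4 (0.989), that of Cdh1 to Slpi (0.986), that of Cldn4 to Traf6 (0.99), that of Cldn18 to Rtn4rl1 (0.99), that of Cdh5 to Pdcd4 (0.99), that of F11r to Enoph1 (0.996), that of Tjp1 to Btf3l4 (0.957), that of Cldn5 to Pawr (0.942) and that of Ocln to Faim (0.898). Each of these is the highest of 14107 values over 9 libraries and is given without a test.

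Other genes of the same junctions were given by lists. Over all genes, an unadjusted P under 0.05 was found in 6.81% with higher and 9.35% with lower values at VILI 0 hours, in 8.17% and 12.2% at VILI 6 hours, and in 12.9% and 26% at VILI 6 hours without replicate 1, and the list counts below are to be read beside these shares. Of 30 further tight junction genes, 2 were higher and 4 lower at an unadjusted P under 0.05 at VILI 0 hours, and 6 and 4 at VILI 6 hours (7 and 10 without replicate 1), and the median log2 fold change was 0.04 and −0.06. Cxadr, an adhesion receptor at tight junctions, was the only one past the adjusted threshold. It measured 44.5, 44.2 and 49.4 FPKM in control, 25.2, 30.2 and 25.1 FPKM at VILI 0 hours and 38.5, 33.8 and 38.8 FPKM at VILI 6 hours, with all VILI libraries below all controls. It fell by 0.78 (SE 0.11, limma adjusted p = 0.0344) at VILI 0 hours, with adjusted p values from 0.00461 to 0.191 over the alternatives. It was not past the threshold in 11 of 18 alternatives: without any 1 control or VILI 0 hours library, without a filter, with median-centred libraries, with the replicate block, without a trend and with the highest row. At VILI 6 hours the scaffold gene Magi3 had the lowest log2 fold change of this list (−0.76, adjusted p = 0.134) and the polarity gene Pard6b the highest (0.71, adjusted p = 0.0978), followed by Cldn8 (−0.53) and Marveld3 (0.51). In the fit without VILI 6 hours replicate 1, Magi3 fell by 1.06 (adjusted p = 0.00137), Pard6b rose by 0.90 (adjusted p = 0.0062) and Marveld3 rose by 0.61 (adjusted p = 0.0132), while Cldn8 was at −0.86 (adjusted p = 0.0967), and at −0.053 without replicate 3.

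Of 18 further adherens junction genes, 0 were higher and 4 lower at an unadjusted P under 0.05 at VILI 0 hours, and 3 and 4 at VILI 6 hours (4 and 5 without replicate 1). The N-cadherin gene Cdh2 measured 4.35, 3.73 and 4.16 FPKM in control, 2.52, 2.14 and 2.102 FPKM at VILI 0 hours and 2.42, 1.61 and 1.24 FPKM at VILI 6 hours. Every VILI library was below every control. Its log2 fold change at VILI 6 hours was −1.22 (SE 0.23, limma adjusted p = 0.0552), and −1.46 (adjusted p = 0.0014) without replicate 1. With all libraries, centred on their median, it was −1.09 (adjusted p = 0.0439). The catenin gene Arvcf (−0.90), the afadin gene Afdn (0.30) and the phosphatase gene Ptprj (0.64) were the others at the ends of the list. Excluding VILI 6 hours replicate 1, Arvcf fell by 1.20 (adjusted p = 0.00548) and Ptprj rose by 0.84 (adjusted p = 0.00758), and Afdn was at 0.37 (adjusted p = 0.0773). With only the highest row of each gene and all libraries, the sign turned for Afdn (−0.93, adjusted p = 0.228) and Ptprj (−0.087, adjusted p = 0.961). Without VILI 6 hours replicate 3, Arvcf was at −0.59. Of 9 desmosome genes, 1 was higher and 0 lower at that threshold at VILI 0 hours, and 3 and 0 at VILI 6 hours (3 and 2 without replicate 1). Perp (0.82, adjusted p = 0.134) and the periplakin gene Ppl (0.61, adjusted p = 0.153) had the highest values and rose without VILI 6 hours replicate 1 (1.17 and 0.88, adjusted p = 0.000568 and 0.00138), while Pkp2 (−0.33) and Evpl (−0.23) had the lowest. In that reduced fit Pkp2 fell by 0.52 (adjusted p = 0.018) and Evpl was at −0.57 (adjusted p = 0.102), whereas without replicate 3 they were at −0.14 and 0.14.

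Of 7 gap junction genes, which form channels between cells, 1 was higher and 3 were lower at an unadjusted P under 0.05 at VILI 0 hours, and 2 and 0 at VILI 6 hours (2 and 2 without replicate 1). The connexin gene Gjb6 measured 2.32, 2.47 and 2.34 FPKM in control, 4.98, 5.42 and 5.33 FPKM at VILI 0 hours and 3.24, 4.29 and 4.70 FPKM at VILI 6 hours, above control in all VILI libraries. It rose by 1.11 at VILI 0 hours (SE 0.16, limma adjusted p = 0.0414), with adjusted p values from 0.00171 to 0.191 over the alternatives, 13 of 18 of which did not pass the threshold. At VILI 6 hours its log2 fold change was 0.74 (adjusted p = 0.0716), and 0.89 (adjusted p = 0.00316) without replicate 1. Gja5, the connexin gene of arterial endothelium, measured 13.7, 14.2 and 12.5 FPKM in control, 3.08, 4.64 and 6.505 FPKM at VILI 0 hours, and 23.9, 4.08 and 2.73 FPKM at VILI 6 hours. All libraries after ventilation were below control except VILI 6 hours replicate 1, which was the highest of all 9. Its log2 fold change was −1.55 (adjusted p = 0.286) at VILI 0 hours and −1.04 (adjusted p = 0.382) at VILI 6 hours, and −1.55 (adjusted p = 0.011) and −1.98 (adjusted p = 0.00294) in the fit without that library. Gjb2 (1.11, adjusted p = 0.295) and Gja4 (−0.18, adjusted p = 0.764) were at the other ends of the list, and without that library they were at 1.25 (adjusted p = 0.185) and 0.0036 (adjusted p = 0.995). Gjb2 was at 0.40 without VILI 6 hours replicate 3 and 1.68 without replicate 2, Gja4 at −0.37 without replicate 2 and −0.27 without control replicate 3, and Gja5 at −0.44 without VILI 6 hours replicate 3.

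Of 28 genes of junction contractility and signalling, 6 were higher and 1 lower at an unadjusted P under 0.05 at VILI 0 hours, and 7 and 4 at VILI 6 hours (13 and 6 without replicate 1). Among these, Sphk1, which makes sphingosine 1-phosphate, measured 2.21, 4.43 and 3.37 FPKM in control, 14.8, 11.2 and 18.2 FPKM at VILI 0 hours and 6.91, 29.4 and 31.9 FPKM at VILI 6 hours. The receptor gene S1pr1 measured 72.1, 64.8 and 75.1 FPKM in control, 138.8, 124.6 and 168.6 FPKM at VILI 0 hours and 73.5, 182.3 and 184.1 FPKM at VILI 6 hours. For both genes the VILI 0 hours libraries were all above control. VILI 6 hours replicate 1 was the VILI library nearest to control for Sphk1 and was within the control range for S1pr1. Their log2 fold changes at VILI 6 hours were 2.5 (limma adjusted p = 0.0665) and 0.94 (adjusted p = 0.153), and without that library 3.21 (adjusted p = 0.000398) and 1.38 (adjusted p = 0.000539). Angpt2, an antagonist ligand of the endothelial receptor Tie2, had a log2 fold change of −1.11 at VILI 6 hours (adjusted p = 0.0598), and Angpt1, its agonist, −0.62 (adjusted p = 0.101). In the same reduced fit these were −1.37 (adjusted p = 0.00116) and −0.64 (adjusted p = 0.0347).

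Of 19 tested transcription factor genes known to act on junction genes, 1 was higher and 3 lower at an unadjusted P under 0.05 at VILI 0 hours, and 2 and 4 at VILI 6 hours (3 and 7 without replicate 1), with medians of −0.07 and −0.04. Snai2, a repressor of Cdh1, and Sox7, an endothelial factor, had the lowest log2 fold changes at VILI 6 hours (−1.07 and −0.95, limma adjusted p = 0.212 and 0.192). Elf3, an epithelial ETS factor, and Foxf1, a factor of lung endothelium and mesenchyme, had the highest (0.92 and 0.78, adjusted p = 0.149 and 0.217). Elf3 measured 9.40, 8.14 and 8.20 FPKM in control, 7.95, 8.76 and 8.42 FPKM at VILI 0 hours and 13.9, 10.7 and 29.2 FPKM at VILI 6 hours. Its VILI 6 hours libraries were all above the others, and its log2 fold change there was 0.51 without replicate 3. Once VILI 6 hours replicate 1 was left out, Snai2 fell by 1.53 (adjusted p = 0.0181) and Foxf1 rose by 1.18 (adjusted p = 0.00758), while Elf3 (1.04) and Sox7 (−1.17) had adjusted p values of 0.0525 and 0.0563. Without replicate 3 instead, Snai2 was at −0.65 and Foxf1 at 0.52.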

How the data were processed

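Lung RNA-seq of 9 mice was analyzed as FPKM, as deposited by the authors, who per the labels and methods aligned reads with TopHat2 2.0.9 (Bowtie2 2.0.6), assembled transcripts and estimated FPKM with Cuffdiff 2.1.1. The sources differ on library kit and sequencer, which could alter which RNAs were captured. FPKM keep no read counts, so read depth behind a value is not given here. Column sums were 366400 to 388500.

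Rows (60108) were summed per gene ID, and 23580 of 23713 Ensembl IDs were named by GENCODE M21 (GRCm38). The genome build used by the authors is not given in the sources used here. Groups came from the sample labels. Genes with a mean FPKM of at least 0.1 were tested in 1 limma 3.58.1 fit (R 4.3.3) of log2(FPKM + 0.1) on group over all 9 libraries, with a trend, and p-values were adjusted by Benjamini-Hochberg over all 19378 genes. Fold changes on this scale understate low genes. P-values measure the spread between 3 mice per group. The procedure was tested on simulated data. Exact permutation used scipy 1.17.1.

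The 10 genes and all lists were chosen with earlier results of these data known. In each list the 2 highest and 2 lowest log2 fold changes at VILI 6 hours (mean of at least 1 FPKM) and any gene past the adjusted threshold were named. For similarity, the nearest gene was named. The one for Cldn3 is not reported here. Alternatives were pseudocounts of 0.01 and 1, a mean of at least 1 FPKM or no filter, libraries centred on their median, fits limited to 6 libraries, the replicate number as a block, no trend, the highest row of each gene, and each library left out. For genes outside the 10, these alternatives were added after seeing the data, as were the counts over lists and markers and the correlations without VILI 6 hours replicate 1.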

Additional observations from a re-analysis of the deposited data

How the results depend on the processing

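Among the fold changes of the 10 genes under the alternatives, 527 kept direction and side of the adjusted threshold, 9 changed sign and 4 newly passed. Sign changed with median-centred libraries for Tjp1 (0.085) and F11r (0.061) at VILI 6 hours against control, and with the highest row of each gene for Ocln between VILI groups (−0.047), Afdn (−0.93) and Ptprj (−0.087) at VILI 6 hours. With single libraries left out, values ran from −0.11 to 0.023 for Tjp1, 0.80 to 2.16 for Cldn4, −0.44 to −0.13 for Cldn18, 0.34 to 0.64 for Esam, 0.027 to 0.37 for Cdh5, −0.57 to 0.14 for Evpl and −0.37 to 0.0036 for Gja4 at VILI 6 hours against control, and between VILI groups from −0.020 to 0.21 for Cldn3, −0.26 to 0.049 for Cldn18, −0.077 to 0.11 for Ocln and −0.23 to 0.11 for Cdh5. The 4 newly passing values all came without VILI 6 hours replicate 1.

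Genes past the adjusted threshold at VILI 0 hours (55) were 15 with a pseudocount of 1, 1 without a filter, 1597 with only the 6 libraries compared, 20 without a trend and 7 with the highest row. At VILI 6 hours (136) they were 75 without a filter, 36 with 6 libraries, 41 without a trend and 11 with the highest row, and between VILI groups (0) 1 with 6 libraries and 2 without a trend. With 6 libraries, unadjusted calls were 5094 at VILI 0 hours (3130) and 1210 between VILI groups (1938). Of the 10 genes, those with an unadjusted P under 0.05 at VILI 0 hours (2) were 1 when centred, 5 with 6 libraries and 0 without a trend. With single libraries left out, adjusted calls ranged from 1 to 1344 at VILI 0 hours, 1 to 4526 at VILI 6 hours and 0 to 362 between VILI groups, and unadjusted calls from 1978 to 4495, 2540 to 7540 and 1406 to 4353. Each highest count came without VILI 6 hours replicate 1. Adjusted calls fell to between 1 and 4 at VILI 0 hours without any 1 control, VILI 0 hours replicate 2 or replicate 3, and to 1 at VILI 6 hours without any 1 control. Of the 10 genes, 0 to 5, 2 to 8 and 0 to 3 had an unadjusted P under 0.05 and 0 to 4 passed the adjusted threshold at VILI 6 hours. The cause was not tested.

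No effect shared by libraries of the same replicate number was seen. Same-numbered deviations correlated at −0.221 to 0.017 over 9 pairs and other-numbered ones at −0.122 to 0.167 over 18. With the replicate block, adjusted calls were 10, 43 and 0, and no junction gene passed the adjusted threshold.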

Other observations

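Marker lists of other cells were measured in the same libraries. Erythroid markers had all 6 genes above 0 on the log2 scale at VILI 0 hours (median 0.53) and all 6 below 0 at VILI 6 hours (median −0.93), with 0 past the adjusted threshold in limma and 0 with an unadjusted P under 0.05 in either comparison. The value at VILI 6 hours rests on replicate 1: the median differences from the control mean were −2.79, −0.074 and 0.11 in replicates 1, 2 and 3, and without replicate 1 the median log2 fold change was 0.030, with 3 of 6 genes above 0. The 4 B cell markers found had a median of −0.57 at VILI 0 hours and −1.37 at VILI 6 hours, 3 of them with an unadjusted P under 0.05 at VILI 6 hours. Their sum was 41.1 to 54.5 FPKM in control and 11.4 to 34.2 FPKM at VILI 6 hours, and without replicate 1 the median was −1.08. The 7 alveolar macrophage markers were all above 0 at VILI 0 hours (median 0.48), 3 with an unadjusted P under 0.05. At VILI 6 hours 5 of them were above 0 (median 0.22), with 1 higher and 1 lower at that threshold. From VILI 0 hours to VILI 6 hours their median was −0.64, with 3 lower. Without VILI 6 hours replicate 1 these medians were 0.297 and −0.525. The 6 fibroblast markers had medians of −0.33 and −0.29, with 2 genes lower at an unadjusted P under 0.05 in each comparison with control and 1, Dcn, higher at VILI 0 hours (log2 fold change 0.39, limma adjusted p = 0.0892). Medians at VILI 6 hours were −0.11 for 9 airway epithelial, 0.05 for 5 mesothelial, −0.07 for 8 cardiac muscle, −0.23 for 5 T cell and 0.60 for 7 platelet markers, and without replicate 1 −0.28, 0.086, −0.11, 0.16 and 0.91. Mesothelial markers summed to 104.5 FPKM in VILI 6 hours replicate 1 and to 44.3 to 66.2 FPKM in the other libraries. Cardiac muscle markers had a median of 0.31 at VILI 0 hours, with 7 of 8 genes above 0. Their sum was 316.2 FPKM in VILI 0 hours replicate 3 and 142.8 to 173.7 FPKM in the other libraries.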
